A study of Mus musculus with 6 samples.

Results

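Focal adhesions are the sites where a fibroblast grips the matrix outside it: integrins in the membrane bind the matrix, and a layer of cytoplasmic proteins ties the integrins to bundles of actin. The 10 genes examined encode proteins of that layer: the linkers Tln1 and Vcl, the LIM-domain scaffolds and adaptors Pxn, Zyx, Tes, Pdlim7 and Csrp1, and the actin cross-linkers Actn1, Actn4 and Flna. They were taken by symbol, with every probe set whose platform annotation gave that symbol alone. All 10 genes were found, with 22 probe sets of the 45037 on the array. Transcript levels were measured in primary dermal fibroblasts, grown out of the skin of B6 mouse pups of mixed sex, aged 0 to 2 days per the sample labels, at passage 6. The Et1 group received 100 nM synthetic endothelin 1 (Et1), a secreted peptide, for 24 hours, and the control group was cultured in the same way with no addition. Each group had 3 Affymetrix Mouse430_2 arrays, biological replicates per the labels. The animals behind them are not named, so p-values measure the spread between these arrays, and 3 arrays per group limit the precision of every comparison.

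The cytoplasmic layer of an adhesion is known to carry force between matrix and cytoskeleton, and in fibroblasts it is built up where tension is high. Endothelin 1 acts on G-protein-coupled receptors and can raise contractility. Genes for several of these proteins are known targets of serum response factor (SRF) and its actin-sensing partners, the MRTFs, which act through a short DNA element named the CArG box.

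Values are signals after scaling every array to the same 2% trimmed mean, 139, since that mean ran from 91.7 to 179 over the deposited arrays. A probe set was tested when its mean scaled signal reached 41.0, the median of the array, and 21 of the 22 did. The arrays also divided by the Bacillus control probe sets, which detect transcripts that can be spiked into RNA before labelling. The mean log2 signal of these was 4.75 to 5.64 on Et1 replicates 1 and 3 and control replicate 3, called the high set below. It was 3.45 to 3.57 on Et1 replicate 2 and control replicates 1 and 2, the low set. Whether spikes were added is not stated in the labels. The ratio of the 3′ to the 5′ control probe set of Actb, a measure of RNA integrity, was 1.15 to 1.23 in Et1 and 1.18 to 1.19 in control arrays. That of Gapdh was 0.677 to 0.757 in Et1 and 0.728 to 0.775 in control arrays. That of Tfrc was wider, at 3.86, 3.14 and 2.20 on Et1 replicates 1 to 3 and 2.52 to 2.98 on control arrays, and its part in the results was not tested. Of the fibroblast markers Col1a1, Col1a2, Col3a1, Pdgfra, Thy1, Dcn, Lum and Vim, 7 of 8 reached the filter, Lum being the exception. Summed signals of the fibroblast markers were 13935 to 25805 in Et1 and 19335 to 32544 in control arrays. The sums for keratinocytes (5 of 7 markers above the filter), endothelial cells (2 of 6), macrophages and leukocytes (5 of 7) and melanocytes (4 of 6) overlapped between the groups, each at or under 518. Those of skeletal muscle (3 of 7, with Myod1, Myog, Myf5 and Myh3 under the filter) were 2867 to 3071 in Et1 and 2342 to 2665 in control arrays, and 0 of these markers passed the test. In RNA from whole cultures, fewer cells of a type and less RNA per cell cannot be told apart.

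Vcl and Csrp1 are the genes whose groups did not overlap in any of their probe sets, as given below, and the bases before their starts are shown so that the CArG box can be read beside the values. The windows come from RefSeq (GRCm38.p6), 5′ to 3′ on the plus strand, at chr14:20929148-20929397 for Vcl and, for 1 of the pair of annotated starts of Csrp1, chr1:135719813-135720062. Each is the 250 bases before an annotated start, and capitals mark a match to the CArG box.

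Vcl: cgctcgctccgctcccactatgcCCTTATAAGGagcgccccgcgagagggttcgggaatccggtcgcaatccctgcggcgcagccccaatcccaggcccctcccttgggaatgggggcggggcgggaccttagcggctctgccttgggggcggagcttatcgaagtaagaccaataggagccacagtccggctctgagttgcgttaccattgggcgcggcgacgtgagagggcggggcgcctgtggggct

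Csrp1: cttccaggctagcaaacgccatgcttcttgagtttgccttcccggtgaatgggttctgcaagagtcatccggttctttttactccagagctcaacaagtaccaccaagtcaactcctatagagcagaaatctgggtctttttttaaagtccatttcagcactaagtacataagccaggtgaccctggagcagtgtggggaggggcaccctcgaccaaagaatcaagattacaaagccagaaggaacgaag

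The CArG box was searched on both strands from 250 bases before to 50 after each start. The pattern is its own reverse complement, so both strands give the same matches. The Vcl window held 1 match, CCTTATAAGG, which begins 227 bases before the start. No match was found in the windows of Zyx, Tes, Flna, Actn1, Actn4, Tln1 and Pdlim7 or in either window of Csrp1, and Pxn was not searched. Of 32851 windows of 300 bases in the mouse table, 535 held a match, or 1.63%. A match is a run of letters, not a measured binding site.

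The comparison of Et1 with control cultures asked whether transcripts of this layer changed with the peptide. Vcl, whose product vinculin binds talin and actin and strengthens their link under load, fell in Et1 cultures. Csrp1, a small LIM protein that binds alpha-actinin and zyxin, had lower signals on every Et1 array but missed the threshold. For the other 8 genes no probe set passed. With limma, 1 of the 21 tested probe sets passed an adjusted p of 0.05 in the lower direction, where 0.249% of all 22519 tested probe sets did, and 0 passed in the higher direction, against 0.0977% of all; in either direction it was 0.346% of all. At an unadjusted p under 0.05, 4 were lower, where 6.38% of all were, and 0 were higher, where 5.94% of all were. By gene, each taken at its brightest probe set, 9 of 10 had a negative log2 difference, where 5171 of all 11666 genes did. The median by gene was -0.24, against 0.05 over all genes. Over the 21 probe sets the median was also -0.24, with 19 negative, where 10338 of all 22519 were. That median was -0.12 without Et1 replicate 1, -0.13 without control replicate 2, -0.42 without Et1 replicate 2 and -0.38 without control replicate 3. With the spike-in sets as blocks in the fit it was -0.09.

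**Figure D1:**
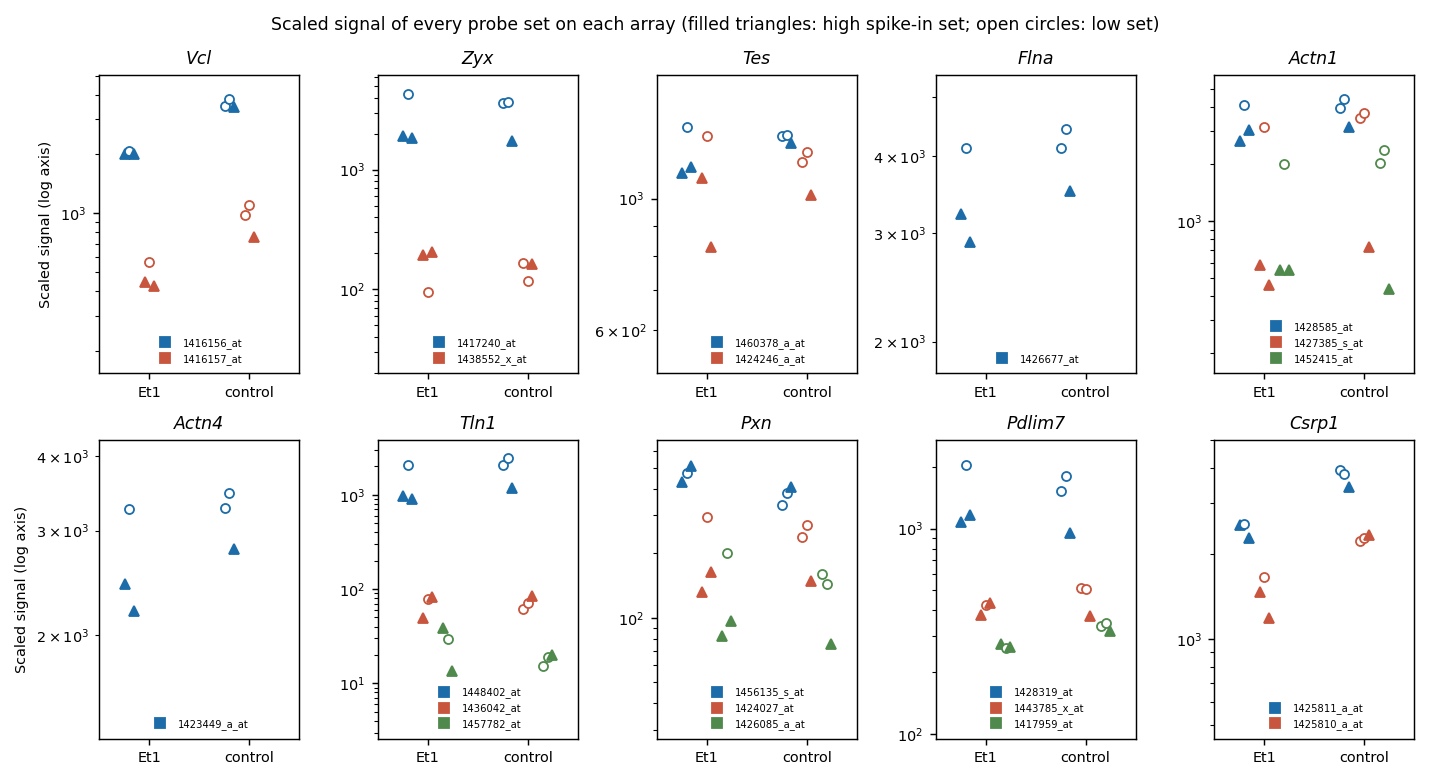
Scaled signal (log axis) of every probe set of the 10 genes on each Et1 and control array, 1 panel per gene and 1 colour per probe set; filled triangles are arrays of the high spike-in set and open circles those of the low set. The Et1 points of Vcl and Csrp1 lie below their control points, while in the 3 probe sets of Actn1, in Zyx 1417240_at and in Tln1 1448402_at the triangles lie below the circles in both groups.

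The linkers come first, since they join the integrin to actin. On the brighter probe set of Vcl, 1416156_at, signals were 1993, 2062 and 2000.1 on Et1 replicates 1 to 3, against 3498, 3790.5 and 3453 on control replicates 1 to 3. Every Et1 array lay well under every control array. The groups averaged 2018 ± 37.9 in Et1 and 3581 ± 183 in control (SD, n = 3 each), a log2 difference of -0.83 (SE 0.11, 95% interval -1.08 to -0.57, limma adjusted p = 0.0307), or 1.77-fold lower. The difference was -0.82 inside the low set and -0.79 inside the high. The low set holds a single Et1 array, replicate 2, and the high set a single control array, replicate 3. Every difference within a set, here and below, thus rests on a single array for either Et1 or control. With the set blocked limma gave -0.81 (adjusted p = 0.00339). The adjusted p missed the threshold without each of 5 arrays in turn, at 0.143, 0.0519 and 0.167 without Et1 replicates 1, 2 and 3 and 0.220 without control replicate 1 or 2, and was 0.0349 without control replicate 3. It also missed with no intensity filter (0.0758), with arrays centred on their median (0.0634) and with no intensity trend in limma (0.138), while the log2 difference stayed between -0.88 and -0.78 in these settings.

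The second probe set of Vcl, 1416157_at, read 445, 567 and 426 on Et1 arrays against 984, 1103 and 756 on control arrays. These groups did not overlap either. The log2 difference was -0.98 (SE 0.19, limma adjusted p = 0.0848), and with the spike-in sets as blocks it passed at -0.84 (adjusted p = 0.00334). Differences within the low and the high set were -0.88 and -0.80. Without control replicate 3 it passed too, at -1.13 (limma adjusted p = 0.0358).

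Tln1 encodes talin, which binds integrin tails, switches integrins on and recruits vinculin. Its bright probe set, 1448402_at, read 963, 2067 and 899 on Et1 replicates 1 to 3, against 2059, 2456 and 1165 on control replicates 1 to 3. The low values in both groups were those of the high spike-in set, and the groups overlapped. The log2 difference was -0.57 with an interval of -1.40 to 0.25 (limma adjusted p = 0.569), and -0.22 with the set blocked (adjusted p = 0.339). A dimmer probe set, 1436042_at, read 48.8 to 82.3 in Et1 and 61.7 to 84.8 in control. The third, 1457782_at, lay below the filter and was not tested, at 13.4 to 38.7 in Et1 and 15.2 to 19.8 in control.

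The scaffolds and adaptors follow, beginning with Csrp1. Its probe set 1425811_a_at read 2509, 2548 and 2260.5 on Et1 arrays against 3935, 3816 and 3436 on control arrays. Probe set 1425810_a_at read 1466, 1649 and 1187 on Et1 arrays against 2221, 2274 and 2329 on control arrays. All Et1 values lay below all control values in both. The log2 differences were -0.61 (SE 0.12, limma adjusted p = 0.0883) and -0.68 (SE 0.15, adjusted p = 0.116), so neither passed. With the spike-in sets as blocks both passed, at -0.57 (limma adjusted p = 0.0178) and -0.63 (adjusted p = 0.0257). Differences inside the low set were -0.60 and -0.45, and inside the high set -0.53 and -0.82.

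Pdlim7, or enigma, pairs a PDZ domain that binds actin-associated proteins with LIM domains, and its 3 probe sets differed from one another. The dimmest, 1417959_at, read 275, 263 and 264 on Et1 arrays against 337, 346 and 318 on control arrays, with no overlap and a log2 difference of -0.32 (limma adjusted p = 0.406). The brightest, 1428319_at, read 1077, 2035 and 1169 on Et1 arrays against 1532, 1802 and 951 on control arrays. There the arrays of the high spike-in set were the low ones in both groups, and the log2 difference was -0.01 (0.27 with the set blocked, limma adjusted p = 0.222). The remaining one, 1443785_x_at, overlapped, at 380.5 to 436 in Et1 and 374 to 516 in control.

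Pxn encodes paxillin, the scaffold on which focal adhesion kinase and other adaptors dock. It held the 1 probe set of the 21 whose Et1 values all lay above control: 1456135_s_at read 430, 472 and 511 on Et1 arrays against 337, 380 and 407 on control arrays. The log2 difference was 0.33 with an interval of -0.02 to 0.68 (limma adjusted p = 0.429), and it did not pass with the spike-in sets as blocks either (0.30, adjusted p = 0.224). Centring arrays on their median brought the groups into overlap. The suffix _s_at marks probes shared by several transcripts, and Actn1 1427385_s_at and Parva 1431375_s_at below carry it too. The other probe sets, 1424027_at (132 to 296 in Et1, 148 to 271 in control) and 1426085_a_at (82.7 to 199.7 in Et1, 75.2 to 159.5 in control), overlapped, with log2 differences of -0.19 and -0.04 that were 0.11 and 0.32 with the set blocked, none of them past the threshold.

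Zyx encodes zyxin, which brings Ena/VASP proteins to stress fibres under strain. Its bright probe set, 1417240_at, read 1922, 4294 and 1844 on Et1 arrays against 3572, 3707 and 1739.5 on control arrays. The highest value of all was that of Et1 replicate 2 and the lowest that of control replicate 3. The log2 difference was -0.20 with an interval of -1.06 to 0.67 (limma adjusted p = 0.865), and 0.18 with the set blocked (adjusted p = 0.400). The dim probe set 1438552_x_at ran from 95.4 to 204 in Et1 and from 118 to 164 in control.

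Tes, or testin, is a LIM protein that binds zyxin. Probe set 1460378_a_at read 1104, 1319 and 1131 on Et1 arrays against 1277, 1281 and 1241 on control arrays, and 1424246_a_at read 1085, 1278 and 830 on Et1 arrays against 1152, 1199.5 and 1013 on control arrays. The groups overlapped in both, with log2 differences of -0.10 and -0.09 and limma intervals of -0.40 to 0.20 and -0.51 to 0.32. Neither probe set passed, and both intervals include 0.

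Actn1 and Actn4 encode the non-muscle alpha-actinins, which cross-link actin into antiparallel bundles and bind vinculin. The brightest probe set of Actn1, 1428585_at, read 2645, 4126 and 3028 on Et1 arrays against 3939, 4414 and 3152 on control arrays. A second, 1427385_s_at, read 586, 3157 and 461 on Et1 arrays against 3499, 3706 and 727 on control arrays. The third, 1452415_at, read 550.1, 2004.5 and 550 on Et1 arrays against 2023, 2365 and 439 on control arrays. In 1427385_s_at and 1452415_at each group held both high and low arrays, and the low ones were those of the high spike-in set. Their log2 differences, -1.16 and -0.60, had limma intervals of -2.99 to 0.67 and -2.17 to 0.97 (adjusted p = 0.601 and 0.762). With the set blocked they were -0.34 and 0.10 (limma adjusted p = 0.189 and 0.745), and that of 1428585_at was -0.24 without and -0.09 with the block. None of these passed.

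The probe set of Actn4, 1423449_a_at, read 2438, 3256 and 2195 on Et1 arrays against 3277.5, 3471 and 2791 on control arrays. Flna, filamin A, joins actin filaments into networks and binds integrin tails; its probe set 1426677_at read 3227, 4126.5 and 2901 on Et1 arrays against 4131, 4432 and 3508 on control arrays. Both genes overlapped between the groups. The log2 differences were -0.29 for Actn4 (limma interval -0.68 to 0.10, adjusted p = 0.541) and -0.24 for Flna (limma interval -0.61 to 0.12, adjusted p = 0.585), and -0.16 and -0.12 with the set blocked.

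**Figure D2:**
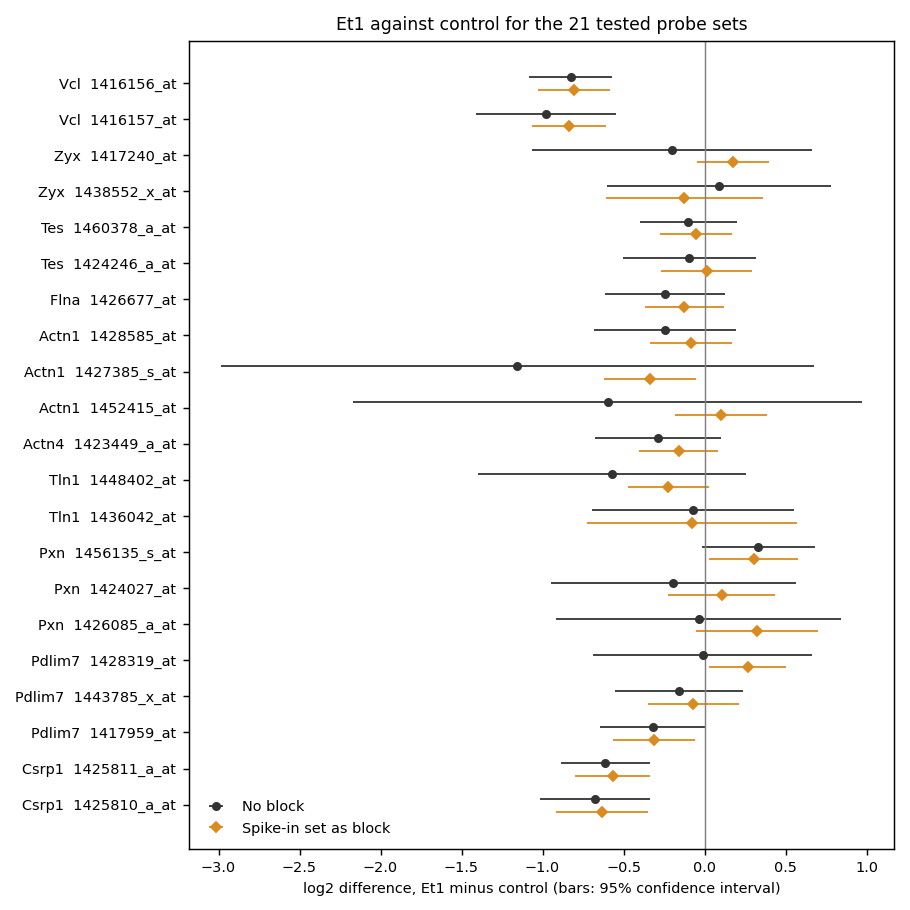
Log2 difference, Et1 minus control, of the 21 tested probe sets with 95% confidence intervals from limma, without a block (black circles) and with the spike-in sets as blocks (orange diamonds). The intervals of both probe sets of Vcl and both of Csrp1 lie below 0 in either fit, and the widest intervals without a block, those of 2 probe sets of Actn1, narrow with it.

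Across the members, 5 of 21 probe sets had all Et1 values below all control values, where 8.11% of all tested probe sets did, and 1 had them above, against 9.47% of all; in either direction groups did not overlap in 17.6% of all. The 5 were both of Vcl, both of Csrp1 and 1417959_at of Pdlim7. With the spike-in sets as blocks limma called 4 member probe sets lower, against 2.47% of all, and 0 higher, against 1.39% of all. The 4 were those of Vcl and Csrp1. With the block 10 of the other 17 estimates were below 0, where without it 15 of these 17 were.

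The difference between the spike-in sets was itself estimated in the same limma fit, high minus low with the treatment group as the other term. The split was found in the arrays, from probe sets that hold none of these genes. Of the 21 member probe sets, 11 were lower in the high set at an adjusted p of 0.05, against 9.99% of all tested probe sets, and 0 were higher, against 6.71% of all. Actn1 stood out in size: 1427385_s_at differed by -2.46 (SE 0.13, limma adjusted p = 1.77e-05), or 5.48-fold lower in the high set, and 1452415_at by -2.09 (SE 0.13, adjusted p = 3.29e-05). The brightest Actn1 probe set, 1428585_at, differed by -0.47 (limma adjusted p = 0.0194), so probe sets of a single gene were far apart. Zyx 1417240_at differed by -1.13, Pxn 1426085_a_at by -1.08 and 1424027_at by -0.90, Tln1 1448402_at by -1.05 and Pdlim7 1428319_at by -0.83. Flna, Actn4 and Vcl 1416157_at also passed, at -0.36, -0.38 and -0.42, whereas Vcl 1416156_at, at -0.06, and both of Csrp1, at -0.14 each, did not. The dim probe set of Zyx, 1438552_x_at, went the other way, at 0.64, and did not pass (limma adjusted p = 0.0719). The count of members lower was 5 without Et1 replicate 2, 7 without control replicate 2 or 3, and 7 with median centring or no intensity trend; without control replicate 1 it was 9, and 1 was higher. The cause of the split was not tested.

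**Figure D3:**
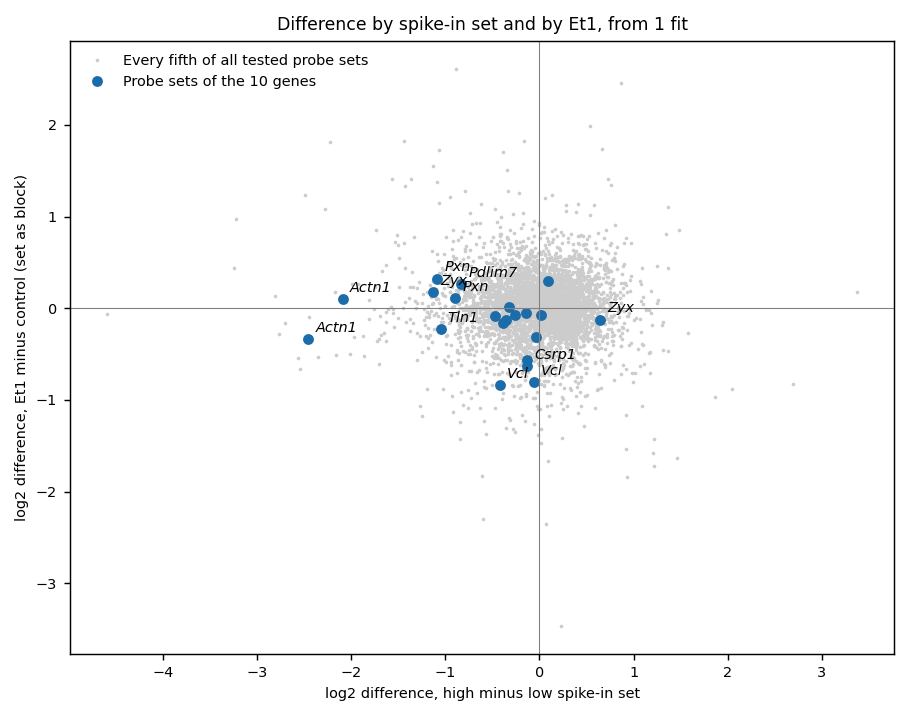
Log2 difference between Et1 and control (vertical axis) against that between the high and the low spike-in set (horizontal axis) from 1 limma fit with both terms, for the member probe sets (blue) over an even sample of all tested probe sets (grey). Probe sets of Actn1, Zyx, Tln1 and Pxn extend to the left along the set axis, while the dim probe set of Zyx lies to the right. Vcl and Csrp1 lie lowest on the Et1 axis.

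Other genes of the same machinery were read from 3 lists. Of 30 tested adaptors and kinases of adhesions, 0 passed in the brightest probe set in either direction, where 0.274% of all genes passed lower and 0.137% higher. The median log2 difference of the 30 was -0.30, with 27 negative, where 5171 of all 11666 genes were. With the spike-in sets as blocks that median was -0.22, against 0.04 over all genes. Of the 70 tested probe sets of this list, 26 were lower in the high spike-in set at a limma adjusted p of 0.05. In that direction 9.99% of all tested probe sets passed. The list had 1 probe set higher in the high set, where 6.71% of all were. Parva, parvin alpha, which links integrin-linked kinase to actin, read 355, 628 and 459 on Et1 arrays against 1268.5, 1201 and 829 on control arrays, a log2 difference of -1.21 (limma adjusted p = 0.0916). Those values are of its brightest probe set, 1431375_s_at. In 1416818_at the groups overlapped, at -0.61 (limma adjusted p = 0.391), and at -0.38 with the spike-in sets as blocks (adjusted p = 0.101). Ilk, the partner of Parva, stood at -0.53 (limma adjusted p = 0.212), and Lpp, a relative of zyxin, at -0.41 in the brightest of its probe sets. Tns1 stood at -0.69, Enah at -0.41 and Tln2, the second talin, at -0.57. The groups overlapped in that probe set of Tns1, which was lower in the high spike-in set, by -0.78 (limma adjusted p = 0.00652). With the spike-in sets as blocks, 3 of the 30 passed lower in the brightest probe set (2.72% of all genes did), namely Parva, Lpp and Ilk.

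Of 19 tested cross-linkers and LIM relatives of the members, 1 passed lower and 0 higher, against 0.274% and 0.137% of all genes. It was Pdlim2, a PDZ and LIM protein related to Pdlim7. It read 173, 209 and 163 on Et1 arrays against 451, 403 and 339 on control arrays, a log2 difference of -1.13 (SE 0.18, limma adjusted p = 0.0485). The median of the list was -0.36, with 16 negative, where 5171 of all 11666 genes were. With the spike-in sets as blocks that median was -0.34. Crip1 stood at -1.22, Palld (palladin, which binds alpha-actinin) at -0.63, Fhl1 at -0.71 and Pdlim5 at -0.46. Synpo, synaptopodin, stood at -2.01 from dim signals of 18.7, 31.3 and 13.1 in Et1 and 147, 104 and 32.9 in control arrays. Its Et1 signals lay under the filter level of 41.0, which its mean over all arrays reached through the control arrays. With the block 5 passed lower, where 2.72% of all genes did. The call of Pdlim2 was lost with median centring, no filter, no trend and when any 1 array but control replicate 3 was left out.

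Of 25 tested genes of the SRF and MRTF axis, 1 passed lower in its brightest probe set and 0 higher, against 0.274% and 0.137% of all genes. It was Mylk, the kinase that switches on non-muscle and smooth muscle myosin. Its brightest probe set, 1425506_at, read 217, 141 and 171 on Et1 arrays against 549.9, 591 and 478 on control arrays, a log2 difference of -1.63 (SE 0.19, limma adjusted p = 0.0257), and 1425505_at passed at -2.01. In 1425504_at the groups overlapped, and it did not pass at -1.85 (limma adjusted p = 0.368). That probe set was lower in the high spike-in set, by -2.17 (limma adjusted p = 0.000919). In the brightest probe set Mylk did not pass without Et1 replicate 1 or 3 or control replicate 1 or 2, nor with no intensity trend. The median of the list was -0.18, with 20 negative, where 5171 of all 11666 genes were. That median was -0.09 without Et1 replicate 3, -0.30 without Et1 replicate 2 and -0.10 within the low spike-in set. With the spike-in sets as blocks it was -0.12. Cnn1, calponin, read 995, 1068 and 726 on Et1 arrays against 2312.5, 2156 and 1724.5 on control arrays and missed the threshold at -1.16 (limma adjusted p = 0.0510). Lima1, an actin-bundling LIM protein, stood at -0.78, Actg2 at -0.69 and Tpm1 at -0.39. Acta2, smooth muscle actin, had a difference of 0.14 in its brightest probe set, 1416454_s_at. Its dim probe sets stood at -1.17 in 1444105_at and -0.57 in 1456658_at, and no probe set of Acta2 passed. With the block 4 genes passed lower, where 2.72% of all genes did. Markers of smooth muscle, Myh11, Des, Smtn, Lmod1 and Actg2, summed to 1323 to 1850 in Et1 and 1939 to 3263 in control arrays. Most of each sum was Actg2, named above, at 1285, 1310 and 1065.5 on Et1 arrays against 2342, 2124 and 1527 on control arrays. All 5 markers were above the filter, 0 were at 0 on any array and 0 passed the test. Their part in these differences was not tested.

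**Figure D4:**
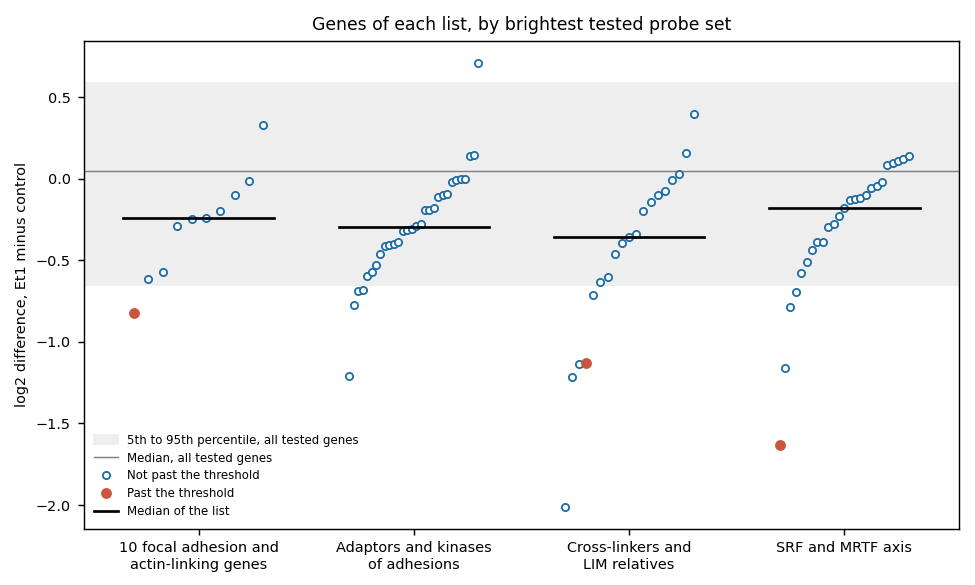
Log2 difference, Et1 minus control, of each gene by its brightest tested probe set, for the 10 genes and 3 lists of related genes; red points passed the threshold, black bars are medians and the grey band spans the 5th to the 95th percentile of all tested genes. The medians of the 4 groups lie between -0.36 and -0.18, and the red points are Vcl, Pdlim2 and Mylk.

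The 3 genes whose probe sets ran most like Vcl 1416156_at over the 6 arrays were Cdc20, Epb41l2 and Fabp4, with Pearson r of 0.997, 0.996 and 0.994. Across 22519 probe sets and so few arrays such values are a description of likeness. Cdc20 activates the anaphase-promoting complex, Epb41l2 is a protein of the membrane skeleton and Fabp4 carries fatty acids. These genes were chosen for likeness to a probe set that was lower in Et1, so lower Et1 signals follow from the choice. The log2 differences were -2.52 for Cdc20, -0.49 for Epb41l2 and -1.44 for Fabp4. The probe set of Cdc20, 1439394_x_at, was dim, at 28.8, 26 and 24.8 on Et1 arrays against 137, 175 and 146 on control arrays. Its Et1 signals lay under the filter level of 41.0, which its mean over all arrays reached through the control arrays. Epb41l2 read 393, 411 and 397 on Et1 arrays against 568, 584 and 539 on control arrays.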

How the data were processed

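The authors deposited a table of linear intensity values by probe set; the submitters' processing notes name MAS5, and neither its version nor its scaling is stated in the sources used here. Each array was scaled to the geometric mean of the 2% trimmed means, 4 zero values were set to the lowest positive signal on the same array, and values were then put on the log2 scale without a pseudocount. Of 45101 probe sets, 64 Affymetrix controls were left out, and 22519 with a mean signal at or above the median were tested with limma 3.58.1 in R 4.3.3 (with an intensity trend and without a block), p-values being Benjamini-Hochberg adjusted over all of them and a threshold of 0.05. Intensities carry no count of molecules, so precision rests on the number of arrays. Names came from the platform annotation, 34945 with a single symbol. Members, lists and tests were chosen with earlier results of these data known. All members were described; from each other list, genes past the threshold in any probe set and then those of smallest p were named, up to 6; the genes most like Vcl were chosen by correlation, skipping clone names. Alternatives were quantile normalization, median centring, other filters, 50 added before log2, no trend, leaving out the _x_at and _s_at probe sets, leaving out each array, and the replicate number or the spike-in set as a block. The fit was tested on simulated data. The experiment files hold the same settings for all arrays and gave no batch.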

Additional observations from a re-analysis of the deposited data

How the results depend on the processing

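Over all probe sets limma called 78, 56 lower and 22 higher, and the count was 44 (37 lower, 7 higher) with median centring, 40 with no filter, 7 with no intensity trend, 567 with the replicate number as a block, 868 with the spike-in sets as blocks, and 4 to 229 when 1 array was left out. Called member probe sets numbered 0 with median centring, no filter or no trend, 4 with either block and 0 to 2 with 1 array left out, against 1. No setting changed the sign of a probe set of Vcl or Csrp1. Called cross-linkers and LIM relatives numbered 0 with median centring, no filter or no trend, 4 with the replicate block, 5 with the spike-in block and 0 to 3 with 1 array left out, against 1; called genes of the SRF and MRTF axis 2 with a filter at the 75th percentile or 50 added, 0 with no trend, 4 with either block and 0 to 3 with 1 array left out, against 1; called adaptors and kinases 3 with either block and 0 to 1 with 1 array left out, against 0. The median of the cross-linkers was -0.41 with median centring, -0.17 with the filter at the 75th percentile, -0.25 with 50 added, -0.29 within the low set and -0.47 to -0.26 with 1 array left out; that of the adaptors was -0.091 within the low set.

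Signs that turned were all of uncalled probe sets. With the spike-in block these were Zyx 1417240_at (0.18) and 1438552_x_at (-0.12), Tes 1424246_a_at (0.013), Actn1 1452415_at (0.10), Pxn 1424027_at (0.11) and 1426085_a_at (0.32) and Pdlim7 1428319_at (0.27). With 1 array left out the ranges were -0.60 to 0.014 and -0.11 to 0.44 for the same probe sets of Zyx, -0.24 to 0.074 for that of Tes, -0.21 to 0.17 for Tln1 1436042_at, -0.53 to 0.053 and -0.42 to 0.21 for those of Pxn and -0.30 to 0.18 for that of Pdlim7. The causes were not tested. Same-numbered Et1 and control arrays deviated from their group means with correlations of -0.12, 0.44 and 0.45 over probe sets, for replicates 1 to 3. Arrays of different numbers gave -0.57 to 0.33. The arrays of replicates 2 and 3 share a spike-in set and those of replicate 1 do not. These correlations therefore cannot decide whether the numbers pair the cultures. The series' design text says that cells were divided into a treated and a control culture, so pairs may exist, but no label ties them to the numbers, and the p-values without a block take the cultures as unpaired. With the replicate block both probe sets of Vcl (limma adjusted p = 0.0153 and 0.0117) and both of Csrp1 (0.0403 and 0.0477) passed.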
